A study of Mus musculus with 4 samples.

Results

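The genes described here are 9 components of the Hedgehog pathway, Ihh, Ptch1, Smo, Gli1, Gli2, Gli3, Hhip, Gas1 and Boc, chosen by symbol from the 54532 genes of the deposited count table, with earlier results of these data known. The cells were C3H10T1/2, a mouse mesenchymal stem cell (MSC) line derived from C3H embryos, and RNA-seq was done on 4 libraries, 1 for each of 4 groups. All cells were first transfected for 48 h: with control siRNA in the groups control and OB, and with siRNA against DNA methyltransferase 1 (DNMT1) in the groups siDNMT1 and siDNMT1_OB. The groups OB and siDNMT1_OB were then induced to differentiate towards osteoblasts for 3 days in medium with 50 µM ascorbic acid, 10 mM β-glycerophosphate and dexamethasone, while control and siDNMT1 were not induced. As a model the groups are limited to 1 cell line, 1 transfection condition for each siRNA and 1 time of induction.

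Each group had 1 library, so differences between single groups could not be checked against replicates and carry no p-value, and p-values are given only for effects averaged over both states in an additive fit. Intervals in brackets are 95% intervals of the read counts and cover counting error only. Levels are given as counts and as CPM, the usual depth-scaled read level, here after TMM scaling. Levels of different Hedgehog pathway genes are compared only as TPM, which also divides by exon length. Sums over lists of marker genes are given in CPM. The 13233 genes that averaged 1 CPM or more were tested, and a gene was called higher or lower past a log2 fold change of 1 in either direction, which is a fold of 2. Of the 9 Hedgehog genes, 7 were tested, and Ihh and Hhip were below the expression minimum.

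Hedgehog signalling controls the patterning and growth of many tissues, and in the skeleton Indian hedgehog from prehypertrophic chondrocytes paces cartilage growth and is needed for osteoblasts to form in endochondral bone. Without ligand, the receptor Patched keeps the membrane protein Smoothened inactive, and GLI3 and GLI2 are processed to repressors at the primary cilium. When ligand binds Patched together with a co-receptor such as GAS1, BOC or CDON, Smoothened is released and full-length GLI activators turn on target genes, among them Gli1, Ptch1 and Hhip, whose mRNA levels are therefore commonly used as readouts of the pathway.

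DNMT1 is the maintenance methyltransferase for CpG dinucleotides, so the CpG content of the promoters is shown first. RefSeq promoter windows (GRCm38.p6; 250 bases before to 50 after the annotated start) were matched for 7 of the 9 genes, all except Gli1 and Boc. Ptch1 held 47 CpG in its window, more than 98.6% of the 32851 RefSeq promoters, and Gli3 held 39, more than 95.6% of them. Ihh and Hhip held 30 each, Gli2 held 28, and Smo and Gas1 held 17 each, against a median of 7 over all promoters. All 7 windows thus had more CpG than the median promoter, and their GC content ran from 62.3% to 76.3% against a median of 52.7%. Methylation was not analysed here. The 250 bases upstream of the start are printed 5′ to 3′ for 4 genes, with each CpG in capitals, to show the range from the densest window to the sparsest. These are Ptch1 (chr13:63565736-63565985, minus strand), Ihh (chr1:74951673-74951922, minus strand), Gli2 (chr1:119053620-119053869, minus strand) and Gas1 (chr13:60177536-60177785, minus strand). Against the gene spans of the count table, the RefSeq start lies inside the gene for Ptch1 and Gli3 and outside it for Gas1, and at or within a few bases of the gene's 5′ boundary for the other 4.
Ptch1: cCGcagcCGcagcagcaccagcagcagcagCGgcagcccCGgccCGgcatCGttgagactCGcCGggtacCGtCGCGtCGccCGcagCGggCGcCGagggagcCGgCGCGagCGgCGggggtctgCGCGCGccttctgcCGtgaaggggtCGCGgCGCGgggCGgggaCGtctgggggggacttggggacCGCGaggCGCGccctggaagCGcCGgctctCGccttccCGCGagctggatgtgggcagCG
Ihh: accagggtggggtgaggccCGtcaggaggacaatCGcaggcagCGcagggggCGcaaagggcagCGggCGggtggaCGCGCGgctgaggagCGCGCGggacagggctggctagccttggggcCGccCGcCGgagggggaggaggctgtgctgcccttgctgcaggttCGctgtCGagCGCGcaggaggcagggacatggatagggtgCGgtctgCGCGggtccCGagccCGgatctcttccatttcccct
Gli2: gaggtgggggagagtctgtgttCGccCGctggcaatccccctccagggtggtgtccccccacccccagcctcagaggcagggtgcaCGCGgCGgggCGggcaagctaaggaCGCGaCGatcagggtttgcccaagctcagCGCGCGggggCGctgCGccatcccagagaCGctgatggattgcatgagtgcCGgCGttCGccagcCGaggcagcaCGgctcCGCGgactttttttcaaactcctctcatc
Gas1: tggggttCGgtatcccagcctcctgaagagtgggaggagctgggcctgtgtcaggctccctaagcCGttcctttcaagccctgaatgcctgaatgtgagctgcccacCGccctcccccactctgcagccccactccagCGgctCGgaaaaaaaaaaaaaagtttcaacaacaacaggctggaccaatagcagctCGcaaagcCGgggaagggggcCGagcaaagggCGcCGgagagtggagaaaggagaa
The upstream stretch of Ptch1 holds 41 CpG, that of Ihh 24, that of Gli2 22 and that of Gas1 10. The 300-base windows were also searched on both strands for the GLI consensus TGGGTGGTC and for its inner letters GGGTGG, which the consensus contains. None of the 7 windows held the full consensus, which 83 of all promoters (0.25%) held. The shorter string, present in 31.48% of all promoters, occurred 2 times each in Ihh and Gli2 and once each in Smo, Gli3 and Hhip, and was not in the windows of Ptch1 and Gas1.

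To check the labels, the targeted gene was read first. Dnmt1 (ENSMUSG00000004099) had 7195 counts with control siRNA and 3375 with DNMT1 siRNA in uninduced cells, and 1931 and 2492 in the induced pair, or 265.3, 131.7, 85.39 and 93.12 CPM. It was lower in siDNMT1 than in control, with a log2 fold change of -1.01 (-1.07 to -0.95), but higher in siDNMT1_OB than in OB, with 0.125 (0.04 to 0.21). The library labelled siDNMT1_OB thus goes against its label at the mRNA level when set against OB. Each direction drawn from it below is that of a library so labelled. All 12 genes of the cell-cycle list below were above 0 in the same comparison, and their part in the Dnmt1 value was not tested. The paper reported DNMT1 knockdown by western blot in these cells after a longer time in osteogenic medium. The libraries held 22296046 to 27367792 counts. Of 9 mesenchymal markers 8 were tested, with a summed level of 15920 to 20260 CPM. Most of it came from Col1a1 (9106 to 10970 CPM), which is also in the osteoblast list, and Vim (5506 to 8356 CPM). Thy1 was at 21.12 to 49.4 CPM and Eng at 29.9 to 45.85 CPM, and Nt5e, with 8 to 50 counts, was not tested. None of 5 markers of blood, endothelial and epithelial cells was tested, with sums of 0.62 to 1.33 CPM. Of the mesenchymal list, Ly6a was called lower in siDNMT1 against control, Pdgfra higher in OB against control, and Thy1 and Pdgfra higher in siDNMT1_OB against siDNMT1. Of 8 osteoblast markers 4 were tested, Alpl and Bglap had at most 3 counts in any library, and Sp7 had 1 to 8 counts. Runx2 was at 72.7 to 95.98 CPM in the 4 libraries. Spp1 was called lower in siDNMT1 and in OB, each against control, and Phex was called lower in siDNMT1 against control and in siDNMT1_OB against OB and higher in OB against control. OB is therefore used here as the name of the treatment. Of 7 chondrocyte markers 5 were tested, with sums of 485.5 (control), 687.8 (siDNMT1), 411.0 (OB) and 761.2 CPM (siDNMT1_OB) and Acan at 0 counts throughout. Col10a1 and Matn3 were called higher in siDNMT1 against control, Col2a1 and Col10a1 in siDNMT1_OB against OB, Sox9, Cnmd and Matn3 in OB against control, and Cnmd in siDNMT1_OB against siDNMT1. Col2a1 went the other way in OB against control, at -0.92 (-0.97 to -0.87), just under the fold threshold. Of 6 adipocyte markers 4 were tested, with sums of 41.18, 45.08, 101.0 and 92.86 CPM in the same order, Plin1 at 0 counts throughout and Adipoq at no more than 3. Cebpa and Lpl were called higher in siDNMT1 against control, Cebpa, Fabp4 and Lpl in OB against control, and Fabp4 in siDNMT1_OB against siDNMT1. Fabp4 went the other way in siDNMT1 against control, at -0.53 (-0.99 to -0.10), under the fold threshold. The part of either list in the Hedgehog results was not tested. The 12 genes of a cell-cycle list summed to 2627 (control), 2331 (siDNMT1), 549.8 (OB) and 1083 CPM (siDNMT1_OB). All 12 were called lower in OB than in control, 8 were called lower in siDNMT1_OB than in siDNMT1 and 6 were called higher in siDNMT1_OB than in OB, and their part in the Hedgehog results was not tested. Over all tested genes, 3.34% were called in siDNMT1 against control, 3.73% in siDNMT1_OB against OB, 17.7% in OB against control and 9.54% in siDNMT1_OB against siDNMT1.

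Among the ligands, Ihh (ENSMUSG00000006538; chr1:74945315-74951672, minus strand), which encodes Indian hedgehog, was close to the limit of detection. Uninduced cells gave 10 counts with control siRNA and 2 with DNMT1 siRNA, and induced cells gave 5 and 2, where the floor of 3 counts per library that stands for a count of 0 equals 0.11 to 0.13 CPM. Both libraries from DNMT1 siRNA had fewer Ihh reads than their partners. The ratio of control to siDNMT1 was 4.72 (1.01 to 44.3) and that of OB to the library labelled siDNMT1_OB was 2.96 (0.48 to 31.1). The first interval begins just above 1 and the second includes 1. Shh had 0 counts in all 4 libraries and Dhh at most 2, so that no ligand gene reached the expression minimum.

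Of the co-receptors, Gas1 (ENSMUSG00000052957; chr13:60174405-60177365, minus strand) encodes a membrane-anchored protein that binds ligand and helps present it to Patched. Its counts were 13825 (control) and 16022 (siDNMT1) in uninduced cells and 28140 (OB) and 25835 (siDNMT1_OB) in induced cells, or 509.7 (501.2 to 518.3), 625.4 (615.7 to 635.1), 1244 (1230 to 1259) and 965.4 (953.7 to 977.3) CPM. Both induced libraries were above both uninduced ones, and no intervals overlapped. The log2 fold change of OB against control was 1.29 (1.26 to 1.32), a ratio of 2.44, and that of siDNMT1_OB against siDNMT1 was 0.63 (0.60 to 0.65). With DNMT1 siRNA it was 0.30 (0.26 to 0.33) in uninduced cells and -0.37 (-0.39 to -0.34) in the induced pair, so that the directions were opposite.

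Boc (ENSMUSG00000022687; chr16:44485049-44558897, minus strand) encodes an immunoglobulin superfamily co-receptor related to CDON. Reads of Boc numbered 794 (control), 1450 (siDNMT1), 3112 (OB) and 3587 (siDNMT1_OB), or 29.27 (27.27 to 31.38), 56.6 (53.72 to 59.59), 137.6 (132.8 to 142.5) and 134.0 (129.7 to 138.5) CPM. Boc was lowest in control and intermediate in siDNMT1, and the intervals of the induced libraries overlapped. OB against control gave 2.23 (2.12 to 2.35), a ratio of 4.70 and the largest difference between induced and uninduced control siRNA cells among the 7 tested Hedgehog genes. In uninduced cells, siDNMT1 against control gave 0.95 (0.82 to 1.08), a ratio of 1.93 that lay just under the fold threshold with an interval that includes it. In the induced pair the value was -0.04 (-0.11 to 0.03).

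Ptch1 (ENSMUSG00000021466; chr13:63508328-63573598, minus strand) encodes the ligand receptor that represses Smoothened and is itself a target of the pathway. Counts of Ptch1 were 616 and 1023 in control and siDNMT1 and 448 and 701 in OB and siDNMT1_OB, or 22.71 (20.95 to 24.58), 39.93 (37.52 to 42.45), 19.81 (18.02 to 21.73) and 26.2 (24.29 to 28.21) CPM. The siDNMT1 library stood above the other three, whose intervals overlapped between control and each induced library but not between the induced libraries. The siDNMT1 log2 fold change was 0.81 (0.67 to 0.96) in uninduced cells and 0.40 (0.23 to 0.58) in the induced pair, and OB against control gave -0.20 (-0.38 to -0.02). Ptch1 had the largest value of the 7 tested Hedgehog genes in the induced siRNA pair, and it was under the fold threshold in every comparison.

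Hhip (ENSMUSG00000064325; chr8:79965851-80058006, minus strand) encodes a decoy receptor that binds ligand and limits signalling. There were 17 Hhip counts in control and 7 in siDNMT1, against 1 in OB and 14 in siDNMT1_OB, at 0.04 to 0.63 CPM. OB was the low library, with a ratio of control to OB of 14.2 (2.22 to 592) that rests on 1 read in OB. On the same read, the ratio of the library labelled siDNMT1_OB to OB was 11.8 (1.80 to 500). The ratio of control to siDNMT1 was 2.29 (0.90 to 6.54), which does not separate them, and the interval of siDNMT1 over control reached no higher than 1.11, below the ratios of Gli1 and Ptch1 in the same comparison.

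Smo (ENSMUSG00000001761; chr6:29735503-29761365, plus strand) encodes the membrane protein that passes the signal to the GLI factors. The 4 libraries gave 4467 (control), 4531 (siDNMT1), 3315 (OB) and 3853 (siDNMT1_OB) counts, or 164.7 (159.9 to 169.6), 176.9 (171.7 to 182.1), 146.6 (141.6 to 151.7) and 144.0 (139.5 to 148.6) CPM. The levels differed little, with both induced libraries below both uninduced ones and overlapping each other. The log2 fold changes lay between -0.30 and 0.10 in the 4 comparisons.

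The GLI transcription factors differed in pattern from each other. Gli1 (ENSMUSG00000025407; chr10:127329882-127341974, minus strand) encodes an activator with no repressor form that is transcribed in response to the pathway. Its 166 counts in control compared with 449 in siDNMT1, and the induced libraries had 82 (OB) and 98 (siDNMT1_OB), or 6.12 (5.22 to 7.12), 17.53 (15.94 to 19.22), 3.63 (2.88 to 4.50) and 3.66 (2.97 to 4.46) CPM. Gli1 was high in siDNMT1 alone, and its level in control was above both induced libraries, whose intervals overlapped. The siDNMT1 log2 fold change was 1.51 (1.26 to 1.78) in uninduced cells, a ratio of 2.86 and the 91st highest of the 13233 tested genes. In the induced pair it was 0.01 (-0.42 to 0.46), and this value turned negative under total count scaling (-0.01). Gli1 was 4.79 (3.84 to 6.02) times higher in siDNMT1 than in the library labelled siDNMT1_OB, which placed its log2 fold change of -2.23 (-2.59 to -1.94) as the 17th lowest of all tested genes. OB against control gave -0.74 (-1.16 to -0.36). The exons of Gli1 overlap those of Arhgap9 on the opposite strand, and whether the counting used strand is not given in the sources used here. Arhgap9 had 1 to 7 counts in any library, and how reads in the shared exons were assigned was not tested.

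Gli2 (ENSMUSG00000048402; chr1:118834132-119053619, minus strand) encodes the main activator of the primary response, which can also be processed to a repressor. Counts of Gli2 were 298 (control), 467 (siDNMT1), 558 (OB) and 796 (siDNMT1_OB), or 10.99 (9.78 to 12.31), 18.23 (16.61 to 19.96), 24.67 (22.67 to 26.81) and 29.75 (27.72 to 31.89) CPM. The 4 intervals did not overlap, with both induced libraries above both uninduced ones and the DNMT1 siRNA library above its partner in each state. OB against control gave 1.16 (0.96 to 1.37), a ratio of 2.25, and siDNMT1_OB against siDNMT1 gave 0.70 (0.54 to 0.87). The siDNMT1 log2 fold change was 0.73 (0.52 to 0.94) in uninduced cells and 0.27 (0.11 to 0.43) in the induced pair.

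Gli3 (ENSMUSG00000021318; chr13:15463235-15730026, plus strand) encodes the factor that acts mainly as the pathway's repressor. Counts of Gli3 were 1991 (control), 1856 (siDNMT1), 1505 (OB) and 1649 (siDNMT1_OB), or 73.4 (70.22 to 76.7), 72.44 (69.18 to 75.82), 66.55 (63.23 to 70.0) and 61.62 (58.68 to 64.67) CPM. Each library overlapped its neighbours in this order and no other library. The log2 fold changes lay between -0.23 and -0.02, and the smallest, siDNMT1 against control, turned to 0.01 under upper quartile scaling. The exons of Gli3 overlap those of Gm6556 on the opposite strand, which had 37 to 75 counts, and those of Gas1 overlap Gm48488, which had 63 to 91.

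**Figure D1:**
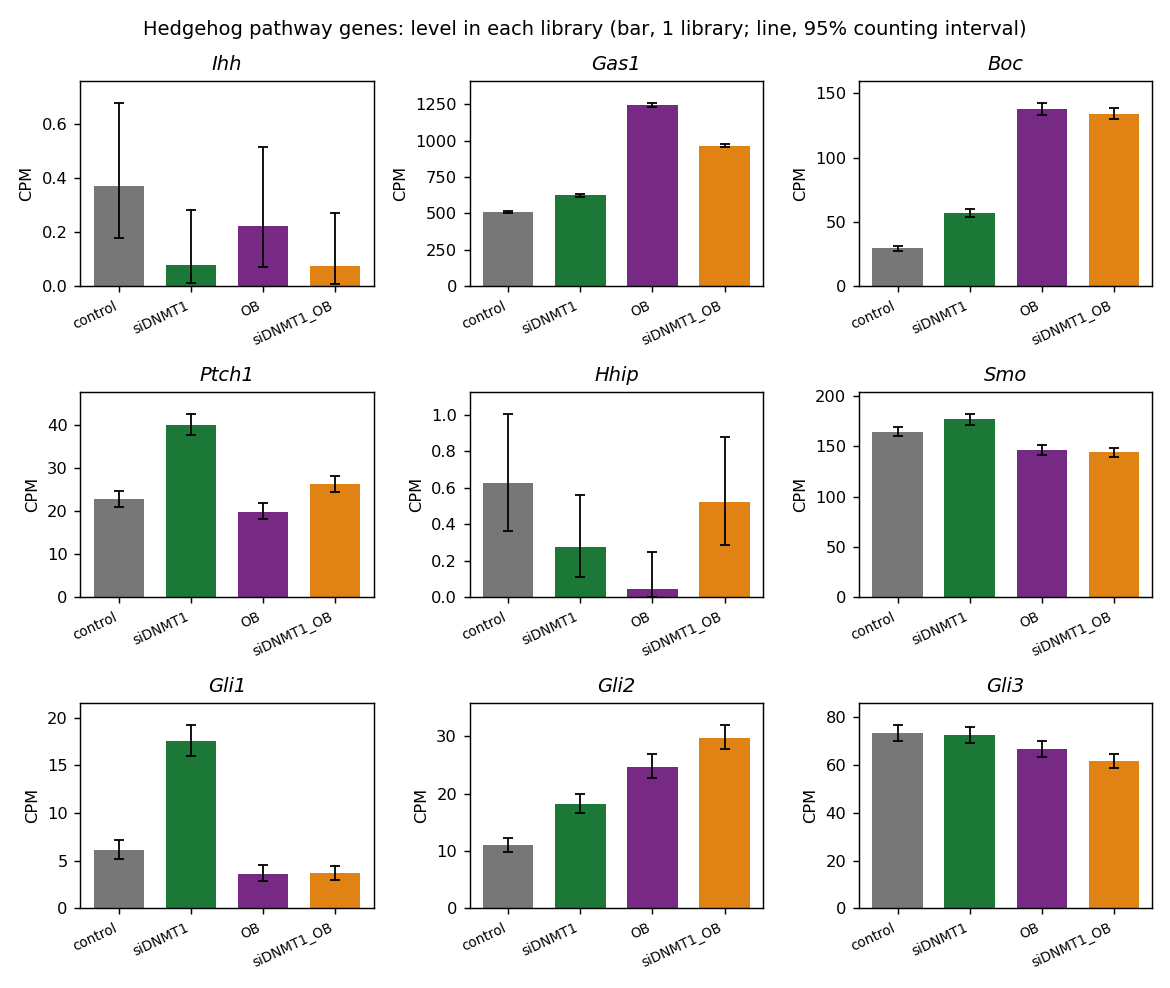
Level of each of the 9 Hedgehog genes in CPM (linear axes from 0, a separate scale for each gene) in the libraries control, siDNMT1, OB and siDNMT1_OB. Each bar is 1 library and each line its 95% counting interval. Gli1 is high in siDNMT1 (17.53 CPM) against 3.63 to 6.12 CPM in the other libraries, Gas1 and Boc are high in both induced libraries, and Ihh and Hhip stay under 1 CPM.

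Scaled to exon length, the order of the members in control was Gas1 (493.8 TPM), Smo (84.04), Gli3 (21.96), Boc (18.87), Ptch1 (4.59), Gli2 (4.59), Gli1 (3.52), Ihh (0.35) and Hhip (0.20). Ptch1 and Gli2 were thus level in control. In siDNMT1 Boc (38.24 TPM) stood above Gli3 (22.72) and Gli1 (10.55) above both Ptch1 (8.47) and Gli2 (7.98). In OB Boc (95.56 TPM) stood above Smo (80.61), and Gli1 was the lowest of the 7 tested genes at 2.24 TPM. Gas1 led in every library.

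The GLI transcripts summed to 30.1 TPM (control), 41.3 (siDNMT1), 34.8 (OB) and 35.3 (siDNMT1_OB), and their make-up also differed between libraries. Gli3 held the largest share in each library, from 55.1% in siDNMT1 and 55.9% in siDNMT1_OB to 61.6% in OB and 73.0% in control. In siDNMT1 the share outside Gli3 was mostly Gli1, at 25.6% against 11.7% in control, while Gli2 held 19.3% against 15.3%. In the induced libraries it was mostly Gli2, at 31.9% in OB and 37.7% in siDNMT1_OB, and Gli1 held 6.45% and 6.38%. The ratio of Gli3 to Gli2 was 4.79 (control), 2.85 (siDNMT1), 1.93 (OB) and 1.48 (siDNMT1_OB). These are shares of mRNA, and full-length and processed GLI proteins are not told apart by them.

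The co-receptor genes Gas1, Boc and Cdon summed to 525 and 694 TPM in control and siDNMT1 and to 1410 and 1110 TPM in OB and siDNMT1_OB. Gas1 made up 90.1% to 94.0% of this sum. The ratio of Gas1 to Boc was nevertheless 26.2 (control), 16.6 (siDNMT1), 13.6 (OB) and 10.8 (siDNMT1_OB). At the receptor step, the ratio of Smo to Ptch1 was 18.3 in control and 18.7 in OB but 11.2 in siDNMT1 and 13.9 in siDNMT1_OB, so that it was lower in the DNMT1 siRNA library of each state. In bulk RNA, fewer cells that express a gene and less RNA per cell cannot be told apart.

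**Figure D2:**
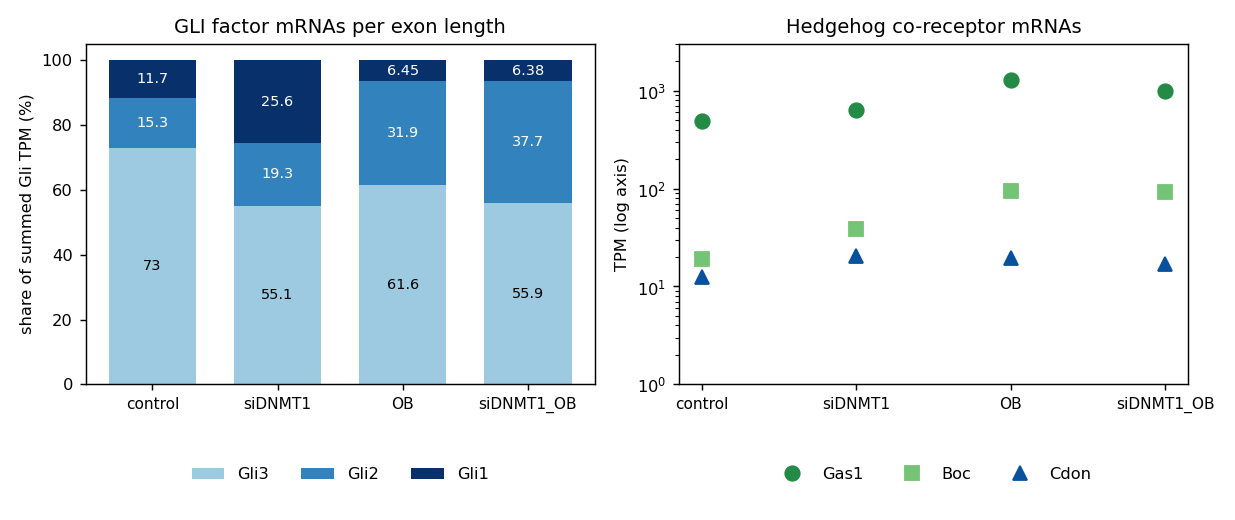
Left, share of the summed Gli1, Gli2 and Gli3 TPM (percent, stacked to 100) in each library. Right, TPM of the co-receptor genes Gas1, Boc and Cdon on a log axis, 1 point per library. Gli1 takes 25.6% of the GLI sum in siDNMT1 against 6.38% to 11.7% elsewhere, and Boc runs from 18.87 to 95.56 TPM.

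To compare DNMT1 depletion in uninduced cells, siDNMT1 was set against control. One of the 7 tested Hedgehog genes, Gli1, was called, and it was higher, where 3.34% of all tested genes were called and 1.97% were called higher. The median log2 fold change of the 7 was 0.73 against -0.001 over all tested genes. Of the 7, 6 had a log2 fold change above 0, in the order Gli1, Boc, Ptch1, Gli2, Gas1 and Smo. Of all tested genes, 49.7% had a log2 fold change above 0 in this comparison. The intervals of these 6 were above 0 and that of Gli3 included 0. They cover counting error only, and the share of all tested genes with such intervals was not computed.

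To compare the same siRNA during induction, the library labelled siDNMT1_OB was set against OB. None of the 7 was called, where 3.73% of all tested genes were. Their median was -0.03 and their range -0.37 (Gas1) to 0.40 (Ptch1). Of the 7, 3 had a log2 fold change above 0, where 52.2% of all tested genes did. Ptch1 and Gli2 had intervals above 0, Gas1 and Gli3 below 0, and those of Smo, Gli1 and Boc included 0. The share of all tested genes with intervals off 0 was not computed.

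The difference between these effects, the induced minus the uninduced log2 fold change, was negative for all 7 tested Hedgehog genes with a median of -0.46, against 0.004 over all tested genes, of which 50.6% were positive. It was -1.49 (-1.99 to -0.998) for Gli1, the one member called, where 6.23% of all tested genes were. For Boc it was -0.99 (-1.13 to -0.84), which total count and upper quartile scaling took past the threshold, for Gas1 -0.66 (-0.70 to -0.62), for Gli2 -0.46 (-0.72 to -0.20) and for Ptch1 -0.41 (-0.63 to -0.19). It was smaller for Smo at -0.13 (-0.22 to -0.04), and for Gli3 the interval included 0 at -0.09 (-0.23 to 0.04). Dnmt1 itself differed by 1.13 between these comparisons. Since Dnmt1 mRNA was lower with its siRNA only in uninduced cells, a different response and a different depletion cannot be told apart here.

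To compare OB induction, OB was set against control. Gli2, Gas1 and Boc were called higher and no tested member lower at this fold, 3 of 7, where 17.7% of all tested genes were called and 10.6% were called higher. The median of the 7 was -0.14, since Gli1, Ptch1, Smo and Gli3 were below 0. With DNMT1 siRNA, in siDNMT1_OB against siDNMT1, Boc was called higher at 1.24 (1.16 to 1.33) and Gli1 lower, 2 of 7, where 9.54% of all tested genes were called. Ptch1 gave -0.61 (-0.75 to -0.47) there. The siRNA and induction comparisons rest on the same 4 libraries.

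**Figure D3:**
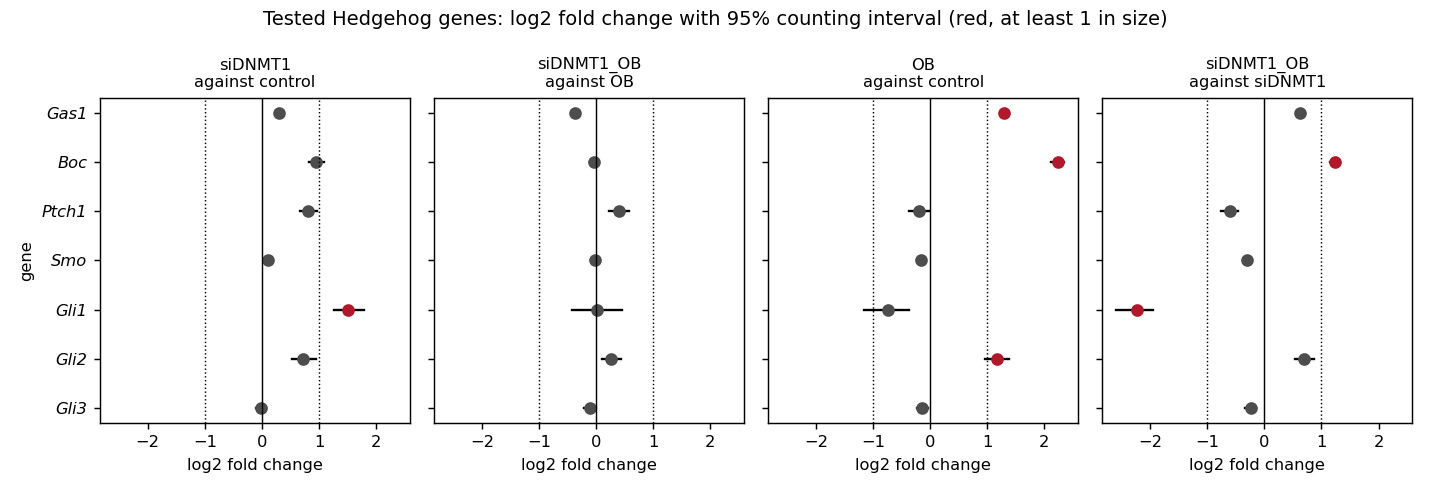
Log2 fold change of the 7 tested Hedgehog genes in 4 comparisons (points), with the 95% counting interval as a line where it is wider than the point and dotted lines at a log2 fold change of 1 in either direction. Red points are at least 1 in size: Gli1 in siDNMT1 against control (1.51), Gas1, Boc and Gli2 in OB against control (1.29, 2.23 and 1.16), and Boc and Gli1 in siDNMT1_OB against siDNMT1 (1.24 and -2.23).

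An additive edgeR quasi-likelihood fit over the 4 libraries, with a term for siRNA and a term for induction, used the disagreement between the states as its noise and had 1 residual degree of freedom. For the average induction effect, 4 of the 7 Hedgehog genes had a Benjamini-Hochberg adjusted p under 0.05, where 21.1% of all tested genes did. These were Boc (log2 fold change 1.73, adjusted p = 0.0152), Gas1 (0.96, adjusted p = 0.0251), Gli2 (0.93, adjusted p = 0.0252) and Gli1 (-1.54, adjusted p = 0.0472) by edgeR. For the average siRNA effect none of the 7 passed, and neither did any other gene (0.00% of all tested genes), although 1148 genes had an unadjusted p under 0.05. Dnmt1, the target of the siRNA, did not pass either, at -0.45 (edgeR adjusted p = 0.776). Ptch1 came closest of the Hedgehog genes at 0.61 (edgeR adjusted p = 0.373), and Gli1 gave 0.84 (edgeR adjusted p = 0.665). Whether the libraries came from separate cultures is not given in the sources used here.

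A further 62 genes of the pathway were read in 5 lists by role, which were chosen with results on these samples known, so their counts are descriptions. Each count of called genes in these lists stands against the shares of all tested genes called in the same comparison, from 3.34% to 17.7%. Of 9 genes for ligands, their acylation and their release, 4 were tested. Scube3, which encodes a secreted protein of the family that helps carry the lipid-modified ligand off the producing cell, had 313, 693, 777 and 1078 counts in control, siDNMT1, OB and siDNMT1_OB. Scube3 was lowest in control, with 1.22 (1.03 to 1.43) in siDNMT1 against control, 1.57 (1.38 to 1.77) in OB against control, and 0.23 (0.10 to 0.36) in the induced siRNA pair. No other tested gene of the 5 lists was called higher in siDNMT1 against control. Its relative Scube2 had 94, 132, 232 and 300 counts and was called higher in both induction comparisons, at 1.54 (1.21 to 1.93) and 1.11 (0.82 to 1.43). Disp1, which encodes the transporter that releases ligand, gave 0.55 (0.47 to 0.62) in OB against control and -0.51 (-0.59 to -0.43) in the induced siRNA pair, and Hhat, the ligand acyltransferase, stayed between -0.44 and -0.01.

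Of 5 other receptor genes 3 were tested and none was called, which so few genes and the shares above (3.34% to 17.7%) do not set apart. Cdon, the co-receptor related to Boc, had 912, 1339, 1092 and 1148 counts in control, siDNMT1, OB and siDNMT1_OB. It gave 0.64 (0.51 to 0.76) in siDNMT1 against control, 0.52 (0.39 to 0.65) in OB against control and -0.17 (-0.29 to -0.05) in the induced siRNA pair. Mosmo, which encodes a protein that lowers the amount of Smoothened at the membrane, stayed between -0.22 and 0.12.

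All 21 genes that carry the signal between Smoothened and the GLI factors were tested and none was called in any of the 4 comparisons, against 3.34% to 17.7% of all tested genes, where their log2 fold changes ran from -0.67 to 0.49. Sufu, the cytoplasmic inhibitor that holds GLI proteins, gave 0.49 (0.38 to 0.60) in OB against control. Prkaca, a catalytic subunit of the protein kinase A that starts GLI processing, gave -0.51 in siDNMT1 against control. Arrb2 and Grk2, which act on Smoothened after its activation, gave -0.67 and -0.40 in siDNMT1_OB against siDNMT1. All 17 ciliary transport and signalling genes were tested and none was called, against the same 3.34% to 17.7%. Their median was 0.20 in siDNMT1 against control and -0.18 in the induced siRNA pair, and the difference between these effects was negative for 16 of 17, where 50.6% of all tested genes were positive. The intraflagellar transport gene Wdr35 had the largest value of this list, 0.78 in OB against control, followed by Inpp5e, a ciliary phosphatase, at 0.71, Dync2h1, the retrograde motor, at 0.63 and Ift81 at 0.55.

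Of 10 genes listed here as possible Hedgehog targets, 7 were tested, and whether they are targets in these cells was not tested. None of the 7 was called higher in siDNMT1 against control, where 1.97% of all tested genes were. With so few genes, this count cannot be told apart from that share. Pth1r, the receptor for parathyroid hormone and its related protein, was called lower there at -1.07 (-2.30 to -0.18), on 29 counts in control and 12 in siDNMT1. It was called higher in siDNMT1_OB against siDNMT1 at 1.62 (0.83 to 2.84), on 43 counts against the same 12. The forkhead genes Foxf1 and Foxl1 went apart in OB against control, at 1.11 (0.84 to 1.40) and -1.48 (-2.29 to -0.87). Bcl2, which opposes cell death, had 334, 348, 147 and 347 counts in control, siDNMT1, OB and siDNMT1_OB, with 0.99 (0.71 to 1.28) in the induced siRNA pair. Ccnd1, which encodes cyclin D1 and was singled out after its values were seen, had the one called difference between the siRNA effects in this list, where 6.23% of all tested genes were called, at 1.26 (1.19 to 1.33), opposite in sign to Gli1. In the same difference 11 of the 12 cell-cycle genes were called higher, against the same 6.23%. In siDNMT1 against control 11 of the 12 were below 0 and Ccnd1 was at -0.34 (-0.38 to -0.30). In OB against control all 12 were below 0 and Ccnd1 was at -0.97 (-1.02 to -0.92). In siDNMT1_OB against OB all 12 were above 0 and Ccnd1 was at 0.92 (0.87 to 0.97). In siDNMT1_OB against siDNMT1 all 12 were below 0 and Ccnd1 was at 0.29 (0.24 to 0.33). The part of that list in the Ccnd1 values was not tested.

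**Figure D4:**
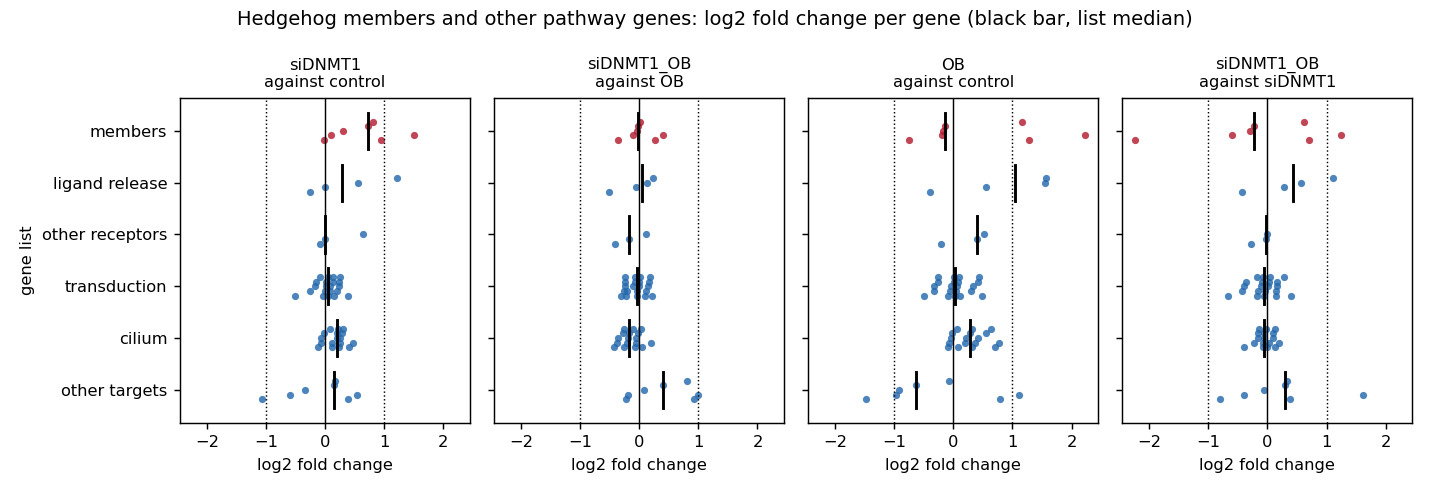
Log2 fold change of each tested Hedgehog gene (red) and of each tested gene in 5 other pathway lists (blue) in 4 comparisons. Each point is a gene, black bars are list medians and dotted lines mark a log2 fold change of 1 in either direction. The transduction and cilium lists stay within 1 in size, while the tested Hedgehog genes and the ligand release and target lists each hold genes beyond it.

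The profiles over the 4 libraries were then compared, each as log2 CPM centred on its mean, by Euclidean distance. Among the 7 tested Hedgehog genes Smo and Gli3 were closest at 0.11, and Gli2 was closer to Gas1 (0.54) and Boc (0.85) than to Gli3 (1.27) or Gli1 (2.49). Gli1 and Boc were farthest apart at 3.25. Of 10826 other genes averaging 5 CPM or more, the nearest to Gli1 were Sorcs1 (0.40), Gadd45a (0.46), Gprin3 (0.69), Filip1l (0.69) and Sox12 (0.72). Ptch1 was at 1.22 from Gli1. Gadd45a, for example, had 15.4 (control), 34.3 (siDNMT1), 6.81 (OB) and 10.1 CPM (siDNMT1_OB). The nearest to Ptch1 were Peg3 (0.16), Rnf150 (0.16), Wisp1 (0.17), Zfas1 (0.18) and Sp4 (0.18). These distances rest on 4 libraries and are descriptions.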

How the data were processed

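RNA-seq was analysed for 4 libraries of C3H10T1/2 cells, 1 per group. Per the labels and methods, the authors prepared TruSeq libraries from mRNA, trimmed paired-end reads with Trimmomatic, aligned them with HISAT2 to mm10 and counted reads per gene with featureCounts. For these RNA-seq files, tool versions, strand use and the treatment of multi-mapped reads are not given in the sources used here. The deposited values are raw counts per gene with summed exon lengths, and 22296046 to 27367792 counts per library.

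The test set was the 13233 of 54532 genes that averaged 1 CPM or more. TMM factors (0.991 to 1.014) came from edgeR 4.0.16 in R 4.3.3, and log2 fold changes used a prior count of 2. Because edgeR, which the study used with the same fold threshold of 2, has no replicates within a group here, genes were called by fold alone. CPM and ratios have exact Clopper-Pearson intervals, and differences between effects have normal-approximation intervals of the counts. They cover counting error only, and reads without molecular identifiers are not independent molecules. TPM was computed from the deposited counts and exon lengths. Scripts were tested on simulated data.

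Named genes are Dnmt1, the 9 Hedgehog genes, at most 4 genes per pathway list with the largest log2 fold change in size, and the 5 nearest profiles to Gli1 and Ptch1. Ccnd1, Shh, Dhh, the genes that overlap a Hedgehog gene and the marker genes named fall outside this rule, and some genes that it names are not reported here. The Hedgehog genes and all lists were chosen with earlier results of these data known. Gene positions are those of the count table, which for all 9 Hedgehog genes equal those of GENCODE M21 (GRCm38). Promoters are from RefSeq (GRCm38.p6). Alternatives were other scalings (total count, upper quartile, DESeq2 1.42.0 median ratio), prior counts, expression filters and fold thresholds, an added read test and an additive edgeR fit.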

Additional observations from a re-analysis of the deposited data

Results flagged for a closer look

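Gas1 had siRNA effects of opposite direction in the uninduced and induced states. Its log2 fold change was 0.295 in siDNMT1 against control and -0.366 in the library labelled siDNMT1_OB against OB, and neither counting interval included 0. With 1 library per group, the difference between the states was not tested.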

How the results depend on the processing

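Values are given in the order siDNMT1 against control, siDNMT1_OB against OB, OB against control, siDNMT1_OB against siDNMT1, and difference between the siRNA effects, where all 5 are listed. The number of genes called, 442, 493, 2344, 1262 and 824, became 201, 257, 1555, 738 and 398 when genes had to average 5 CPM, which tests fewer genes. It became 2598, 3273, 6142, 3866 and 5385 with no expression filter, and 1436, 1526, 4550, 3038 and 2313 at a fold threshold of 1.5. With no expression filter, 3 Hedgehog genes were called in siDNMT1 against control (Ihh and Hhip lower, Gli1 higher), 1 in siDNMT1_OB against OB (Hhip) and 2 in the difference (Gli1 and Hhip), and Ihh and Hhip rest on 1 to 17 counts. Of all 54532 genes, which include genes without reads, 2598, 3273 and 5385 were called there in the same order. In OB against control, Gli2, Gas1 and Boc stayed higher and 1 gene was called lower under each setting, Hhip with no filter and Gli1 at a fold of 1.5. Of all genes, 6142 of 54532 and 4550 of 13233 were called under these settings. At that fold, 4 were called in siDNMT1 against control (Ptch1, Gli1, Gli2 and Boc), 5 in siDNMT1_OB against siDNMT1 (Ptch1, Gli1, Gli2, Gas1 and Boc) and 3 in the difference (Gli1, Gas1 and Boc), where 1436, 3038 and 2313 of all 13233 tested genes were. Under total count and upper quartile scaling, 2 Hedgehog genes were called in the difference (Gli1 and Boc). Of all 13233 tested genes, 809 were called in it under either scaling, and the cause of the added call was not tested. The average siRNA effect over both states passed the fold for 240 genes, against 0 with the additive edgeR fit, which also asks for an adjusted p under 0.05. The average induction effect passed for 1714 and 1501 genes. Of 175 log2 fold changes of the 7 tested Hedgehog genes under other scalings and prior counts, 170 stayed within the counting interval and the other 5, all of Gas1, moved by at most 0.049. Gli1 in siDNMT1_OB against OB and Gli3 in siDNMT1 against control, both near 0, changed sign under some scalings. No paired analysis was possible because each group held 1 library and the labels carry no replicate numbers, apart from the additive fit above, which matches the states by siRNA. For the same reason no library could be left out. Depth limits Ihh and Hhip, whose ratios have wide counting intervals.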
